A study of Homo sapiens with 6 samples.

Results

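Dual-specificity phosphatases (DUSPs) remove phosphate from both the threonine and the tyrosine that switch a MAP kinase on. Transcription of several DUSP genes is itself induced by MAP kinase signalling, so they act as feedback brakes on ERK, p38 and JNK, the 3 best known kinase branches. In heart muscle these branches are known for their part in growth and stress responses. The 10 DUSP genes described here were DUSP1, DUSP2, DUSP4, DUSP5, DUSP6, DUSP8, DUSP9, DUSP10, DUSP16 and DUSP26, found by symbol among 35793 genes listed. They were selected on their normalized counts in these 6 libraries, DUSP26 for its loss in the knockout, so their differences between genotypes are a description and carry no test. DUSP7, the other classical MAP kinase phosphatase, is given beside them, and other family and pathway genes are tested. The lists of those genes were also chosen with earlier results of these data known, which limits what their shares of calls can show.

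WTC11, an established human line of induced pluripotent stem cells, was differentiated and its cardiomyocytes were taken on day 15. The wild type was WTC11 itself. The knockout was a WTC11 derivative with both copies of STK25 disrupted by CRISPR/Cas9, represented by 1 line, so the edit and any other difference between the lines cannot be told apart. Each genotype had 3 biological replicates and no treatment.

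The 6 libraries held from 22443904 to 53224112 reads assigned to genes. On a principal component carrying 24.1% of the variance, wild-type replicate 2 and knockout replicate 1 stood apart from the other libraries, and results that move without them are given both ways. The targeted gene, STK25, ranged over 6774 to 8874 normalized counts in wild-type libraries against 3434 to 3906 in knockout libraries (log2 difference -1.12, SE 0.19, limma adjusted p = 0.00903, or 0.0609 when wild-type replicate 1 was dropped). Cardiomyocyte markers were present in every library, summing over 11 genes to 1403842 to 1783360 normalized counts in the wild type and 2004332 to 3700153 in the knockout, and 1 of the 11 fell. Markers of other cell types moved between the genotypes. All 4 smooth muscle markers rose, from a sum of 77993 to 87796 in the wild type to 486822 to 536050 in the knockout. Of 5 epithelial markers 2 rose and 1 fell (sums 125039 to 132756 and 281827 to 313383), and of 8 neural markers listed 5 were tested and 2 rose (sums 77.8 to 129 and 467 to 741). Of 7 fibroblast markers 2 rose and 1 fell (sums 12893 to 26523 and 7662 to 16208). Of 5 atrial markers 1 rose and 3 fell (sums 155148 to 254041 and 26522 to 53076), and of 4 ventricular markers 3 fell (sums 127741 to 164960.2 and 134332 to 235238). Of 3 tested endoderm and liver markers 1 fell (sums 1659 to 3003 and 1191 to 1248). The 3 epicardial markers had sums that did not overlap (99.7 to 172 and 246 to 456). The part of these cell types in the DUSP values was not tested, and in bulk RNA fewer cells of a type and less RNA per cell cannot be told apart.

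DUSP26 is an atypical DUSP, small and without the MAP kinase binding domain of the classical members. It has been described as a phosphatase of p38 and as a binding partner of the heat shock factor HSF4. Its gene occupies positions 33591332 to 33600106 of chromosome 8, read from the minus strand (ENSG00000133878.8, GENCODE 29 on GRCh38, the source of all gene positions here). DUSP26 stood at 3457, 4037 and 4029 normalized counts in the wild type. In the knockout it stood at 2.54, 5.57 and 2.67, which are 2, 5 and 3 reads. The transcript was therefore abundant in every wild-type library and near the detection limit in every knockout library. The 13905 wild-type and 10 knockout reads gave a 1102-fold difference after scaling, with a 95% Clopper-Pearson interval from 599 to 2300 that covers counting error only. In reads scaled to the length of the longest coding transcript and to the library total (RPKM), DUSP26 stood highest in the wild type of the 10 genes and DUSP7, at 58.8 ± 5.06 (SD, n = 3), and had the lowest mean in the knockout, at 0.0469 ± 0.0272 (SD, n = 3), where its libraries overlapped those of DUSP9 at 0.0541 ± 0.0762 (SD, n = 3). On the log2(value + 1) scale its difference was -9.77 with an SE of 0.35. Leaving out 1 library gave values from -10.05 to -9.61, and adding 10 or 0.1 in place of 1 gave -8.15 and -10.11. The spread of DUSP26 within genotypes, an SD of 0.366 on the log2 scale, was below the median of 0.433 over all genes tested. In the knockout this spread rests on 2, 5 and 3 reads and depends on the value added before the logarithm, so it does not measure how steady the gene was there.

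**Figure D1:**
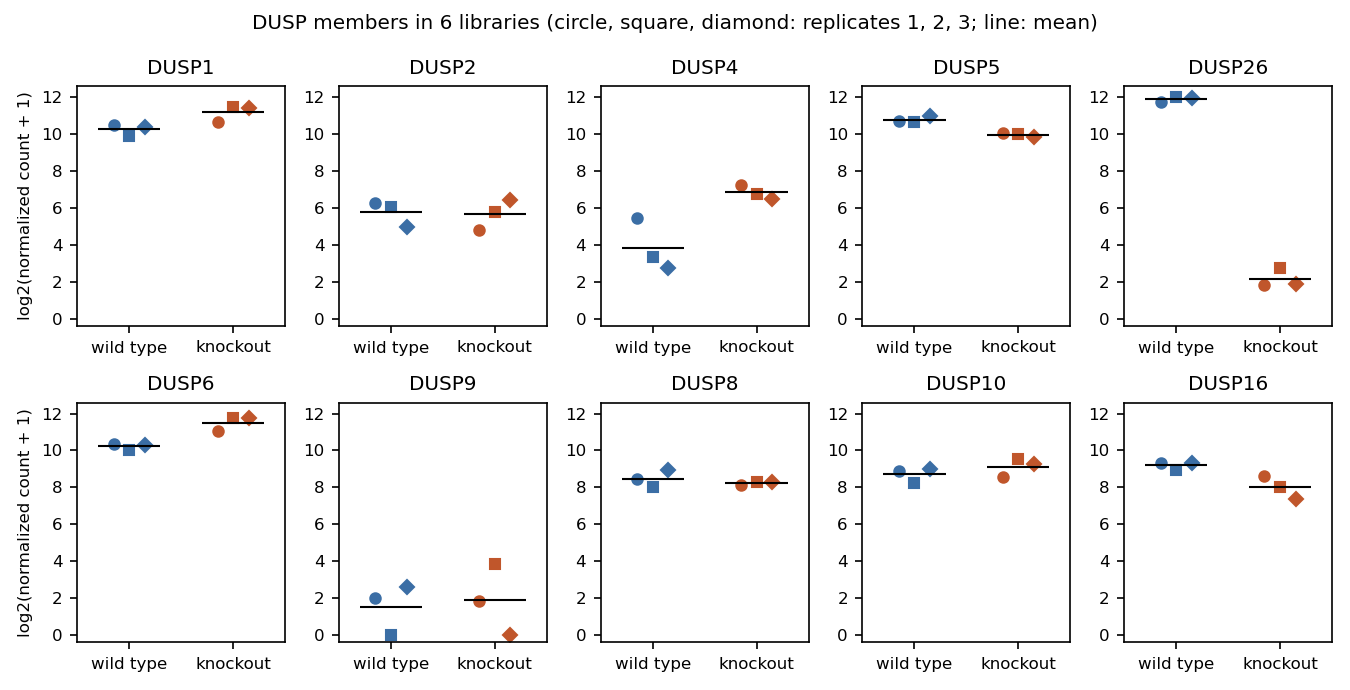
Levels of the 10 DUSP genes in each library as log2(normalized count + 1), wild type in blue and knockout in orange, with replicates 1, 2 and 3 as circle, square and diamond and the mean as a line. DUSP26 goes from above 3457 normalized counts in each wild-type library to at most 5.57 in each knockout library, while DUSP2, DUSP8, DUSP9 and DUSP10 overlap between the genotypes.

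The classical MAP kinase phosphatases that act in the nucleus are DUSP1, DUSP2, DUSP4 and DUSP5. DUSP1, an early response gene whose product acts on p38, JNK and ERK, lies on chromosome 5 from 172768090 to 172771195. It had 1449, 956 and 1337 normalized counts in the wild type and 1622, 2864 and 2674 in the knockout. The genotypes did not overlap, although knockout replicate 1 came close to the wild type. The difference was 0.91 on the log2 scale (SE 0.28), a 1.91-fold higher mean. DUSP4, a nuclear phosphatase of ERK and JNK (chromosome 8, 29333064 to 29350668), had 42.3, 9.14 and 5.74 normalized counts in the wild type and 149, 108 and 89.8 in the knockout. These were 28, 12 and 9 reads against 117, 97 and 101 reads. Wild-type replicate 1 carried most of the wild-type signal, and without it the log2 difference went from 2.99 (SE 0.72) to 3.79. Other choices lowered the difference: it was 2.44 without wild-type replicate 3, 2.65 by edgeR and 2.30 on adding 10 in place of 1.

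DUSP5, a nuclear phosphatase selective for ERK (chromosome 10, 110497838 to 110511544), went the other way. It had 1636, 1621 and 2032 normalized counts in the wild type against 1044, 1021 and 911 in the knockout. The knockout libraries, at 992 ± 71.0 (SD, n = 3), each lay below each wild-type library. The log2 difference was -0.82 (SE 0.19). DUSP5 was also the steadiest of the members between replicates, with an SD within genotypes of 0.150 on the log2 scale, which 7.75% of all tested genes fell under. DUSP2, a nuclear phosphatase known mainly from immune cells (chromosome 2, 96143166 to 96145440), was scarce. It had 77.0, 64.7 and 30.0 normalized counts in the wild type and 26.7, 53.5 and 83.5 in the knockout. The genotypes overlapped throughout this range. Its log2 difference of -0.11 (SE 0.58) was 0.33 without knockout replicate 1, 0.16 without wild-type replicate 1 and 0.03 without wild-type replicate 2.

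DUSP6 and DUSP9 act on ERK in the cytoplasm. DUSP6, a widely used readout of FGF and ERK signalling, lies on chromosome 12 from 89347232 to 89353271. It had 1320, 1034 and 1261 normalized counts in the wild type and 2149, 3405 and 3414 in the knockout. Each knockout library lay above each wild-type library, with knockout replicate 1 the lowest of the knockout. The mean was 2.48-fold higher and the log2 difference 1.29 (SE 0.24), or 1.00 when the libraries were scaled to equal totals, which lowered the median of all genes from 0.0052 to -0.27. DUSP9 (chromosome X, 153642492 to 153651326) was barely detected, with 2, 0 and 8 reads in the wild type and 2, 12 and 0 in the knockout. It was the 1 member of 10 below the mean of 10 normalized counts required for fitting. DUSP7, the third of these cytoplasmic ERK phosphatases, had 325, 320 and 322 normalized counts in the wild type and 365, 168 and 182 in the knockout. Its 3 wild-type libraries were nearly equal, and knockout replicate 1 lay above them while the other 2 lay below. The log2 difference of -0.52 (SE 0.34) did not pass (limma adjusted p = 0.379); without wild-type replicate 2 and knockout replicate 1 it was -0.88 (limma adjusted p = 0.0421).

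The members that prefer p38 and JNK are DUSP8, DUSP10 and DUSP16. DUSP16 (chromosome 12, 12474210 to 12562383) had 637, 489 and 644 normalized counts in the wild type and 393, 259 and 164 in the knockout. The genotypes did not overlap, and the knockout mean was 46.1% of the wild-type mean. The log2 difference was -1.19 (SE 0.35). DUSP10 (chromosome 1, 221701424 to 221742176) had 467, 299 and 514 normalized counts in the wild type and 378, 732 and 627 in the knockout. The genotypes overlapped through knockout replicate 1, and the log2 difference was 0.42 (SE 0.34), or 0.70 without that library; dropping replicate 2 gave 0.19 (wild type) and 0.23 (knockout). DUSP8 (chromosome 11, 1554044 to 1571920) had 346, 260 and 491 normalized counts in the wild type and 282, 309 and 310 in the knockout. The 3 knockout libraries fell inside the wild-type range, with a log2 difference of -0.24 (SE 0.29) that was 0.0016 without wild-type replicate 3 and -0.46 without wild-type replicate 2. A related pseudogene, DUSP8P5, had 57.4, 74.6 and 119 normalized counts in the wild type and 113, 136 and 163 in the knockout. Reads shared by DUSP8 and its pseudogene could have been split between them, so both values are uncertain.

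DUSP1 and DUSP8 are the members whose promoters held the full cAMP response element TGACGTCA, the palindrome bound by CREB, within 250 bases before the RefSeq start. They are shown because the pair carries the same element while DUSP1 was higher in the knockout without overlap and DUSP8 overlapped. Of the 10 members, 7 had a promoter entry, and of 35116 windows of this length 1.65% held the element (it reads the same on both strands). The sequences below run from 150 to 51 bases before the start, in GRCh38.p14 on the minus strand, at chr5:172771246-172771345 for DUSP1 and chr11:1572322-1572421 for DUSP8, with the element in capitals.
DUSP1: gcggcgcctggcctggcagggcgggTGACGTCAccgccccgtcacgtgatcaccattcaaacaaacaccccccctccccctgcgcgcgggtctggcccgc
DUSP8: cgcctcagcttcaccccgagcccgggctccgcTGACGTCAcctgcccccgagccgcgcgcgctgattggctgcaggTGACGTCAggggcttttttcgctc
The element begins at base -125 of DUSP1 and at bases -118 and -74 of DUSP8, counted from the start. The AP-1 letters TGANTCA, on either strand, were in 6.57% of all windows, and the serum response element (CArG box) in 1.16%; these letters were in no window of the 7 members. A match is a description of the letters and not of binding.

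Of the 9 members fitted, 4 had positive differences, as did 50.4% of all genes, and 5 negative, with a median of -0.11 against 0.0052 over all 15536 genes tested. By limma with Benjamini-Hochberg adjustment over all genes, 4 of the 9 had an adjusted p under 0.05, where 12.8% of all genes did: DUSP4 and DUSP6 were higher (5.97% of all genes) and DUSP5 and DUSP26 lower (6.79%). In 6 of the 9 the genotypes did not overlap, as in 33.4% of all genes, with 3 members above (16.2%) and 3 below (17.2%). Nothing is read from these shares, since the members were chosen with this contrast known. Dropping a single library put between 1 and 5 members past the threshold: 1 on dropping replicate 3 of either genotype, 2 on dropping wild-type replicate 1 or knockout replicate 2, and 5 on dropping knockout replicate 1. edgeR called 3 and DESeq2 6, where they called 12.0% and 20.7% of all genes, and 6 passed by limma on dropping wild-type replicate 2 together with knockout replicate 1 (28.9% of all genes).

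The order of the levels in RPKM changed between the genotypes. In the wild type, DUSP26 was followed by DUSP5 at 19.5 ± 3.63, DUSP1 at 17.6 ± 4.82, DUSP6 at 7.77 ± 1.53 and DUSP10 at 4.55 ± 1.49 (SD, n = 3 each). DUSP5 and DUSP1 overlapped between libraries, as did DUSP10, DUSP16, DUSP7 and DUSP8 from one to the next. Within each wild-type library DUSP10 stood above DUSP16, and the order in the other overlapping pairs varied. In the knockout, DUSP1 stood first at 28.1 ± 10.6, then DUSP6 at 16.1 ± 5.49 and DUSP5 at 9.0 ± 1.10 (SD, n = 3 each). There DUSP1 overlapped DUSP6, and DUSP6 overlapped DUSP5, when libraries were pooled. Within each knockout library DUSP1 stood above DUSP6 and DUSP6 above DUSP5. DUSP2, DUSP4 and DUSP9 were under 1 on this scale in the mean of either genotype. Summed over the 10 members, normalized counts were 9517 ± 793 in the wild type and 7698 ± 1450 in the knockout (SD, n = 3 each). Without DUSP26 they were 5676 ± 835 and 7694 ± 1449 (SD, n = 3 each), and knockout replicate 1, at 6045, lay inside the wild-type range of 4732 to 6319.

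**Figure D2:**
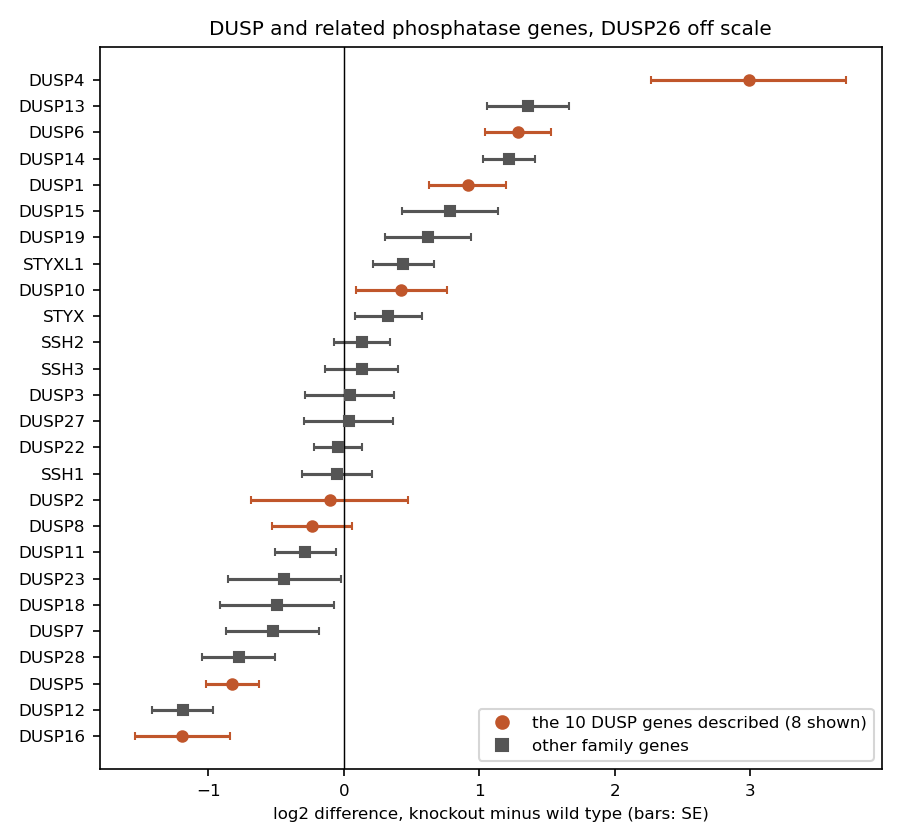
Fitted log2 differences (knockout minus wild type, on log2(value + 1), bars showing the SE) for 8 of the 10 DUSP genes, as circles, and the other tested family genes, as squares; DUSP26 at -9.77 is off scale and DUSP9 was not fitted. DUSP4, DUSP13 and DUSP6 lie furthest to the right and DUSP16 and DUSP12 furthest to the left.

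Variation among replicates does not use the contrast between genotypes. DUSP1, DUSP6 and DUSP10 moved together there. Relative to their genotype means, wild-type replicate 2 was low by -0.36, -0.21 and -0.47 on the log2 scale for these 3 genes in turn, and knockout replicate 1 by -0.51, -0.44 and -0.56. The other 4 libraries were above their means for all 3. Pearson's r between the deviations over the 6 libraries was 0.982 for DUSP1 and DUSP6, 0.970 for DUSP1 and DUSP10 and 0.936 for DUSP6 and DUSP10. The trio was singled out after its values were seen. The 2 low libraries are those that stood apart over all genes, and 15.7% of all tested genes followed DUSP1 with an r over 0.9. The deviations of DUSP1 also followed the mean of 21 ERK feedback and target genes (r = 0.864), and ran against the mean of 17 immediate early genes (r = -0.740). DUSP1, DUSP6 and DUSP10 followed the principal component on which those 2 libraries stood apart. Within genotypes, their r with this component was 0.987, 0.978 and 0.988. The ERK feedback mean followed it too (r = 0.881), and the immediate early mean ran against it (r = -0.755). Whether the link of DUSP1 is particular to these lists was not tested. DUSP4 and DUSP5 did not share the trio's pattern: wild-type replicate 2 and knockout replicate 1 deviated by -0.50 and 0.39 for DUSP4 and by -0.11 and 0.08 for DUSP5.

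**Figure D3:**
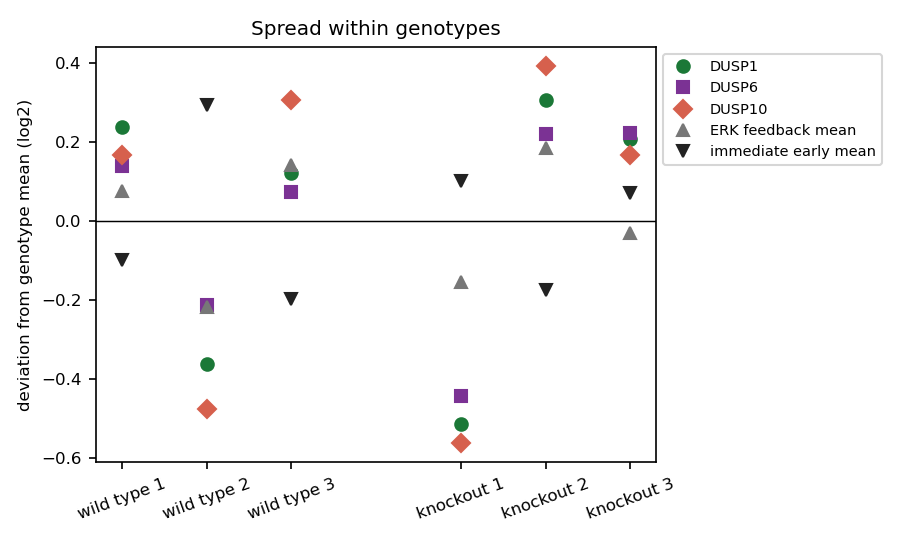
Deviation of each library from its genotype mean (log2) for DUSP1, DUSP6, DUSP10 and the means of the ERK feedback and immediate early gene lists. The 3 DUSP genes are below 0 in wild-type replicate 2 and knockout replicate 1 and above 0 in the other libraries; the immediate early mean is above 0 in those 2 libraries and in knockout replicate 3.

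Other genes of the DUSP family were compared between the genotypes from a list of family members by name. Of 18 tested, 2 rose and 1 fell by limma with adjustment over all genes, or 16.7% against 12.8% of all genes, and the median difference was 0.039 on the log2 scale. DUSP14, an atypical member, rose from 3071, 3754 and 2952 normalized counts to 8613, 6726 and 7399 (log2 difference 1.22, SE 0.19, limma adjusted p = 0.00678). Each knockout library was above each wild-type library. DUSP13, known from testis and skeletal muscle, rose from 189, 299 and 237 to 806, 465 and 609 (1.36, SE 0.30, limma adjusted p = 0.0253). DUSP12, a member with a zinc-binding domain, fell from 1409, 1744 and 1354 to 549, 649 and 783 (-1.19, SE 0.22, limma adjusted p = 0.0135). The DUSP13 call was lost on dropping replicate 1 or 3 of the wild type or replicate 3 of the knockout (limma adjusted p = 0.111, 0.0863 and 0.0896), and the DUSP12 call on dropping wild-type replicate 1 (limma adjusted p = 0.0637). The whole list had 1 call without wild-type replicate 1, and 6 without wild-type replicate 2 and knockout replicate 1 together. Calls over all genes, 1982 in the main fit, were 796 and 4483 in those fits. DUSP3, a small phosphatase of ERK and JNK, and DUSP27, a muscle pseudophosphatase, had log2 differences of 0.04 (SE 0.33, limma adjusted p = 0.954) and 0.04 (SE 0.33, limma adjusted p = 0.964).

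Among 11 tested phosphatases of other families that act on MAP kinases or their receptors, PTPN1 passed. PTPN1, a tyrosine phosphatase of the endoplasmic reticulum, rose from 711, 822 and 785 normalized counts to 1755, 1876 and 1604 (log2 difference 1.17, SE 0.19, limma adjusted p = 0.00692). The list had 9.09% called, against 12.8% of all genes, and a median of 0.010. The call for PTPN1 held in each fit that left out 1 library.

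Of the 13 tested MAP kinases, the enzymes on which these phosphatases act, 2 fell and 0 rose (15.4%, against 12.8% of all genes). MAPK10, the JNK isoform of brain and heart, fell from 879, 680 and 779 normalized counts to 242, 300 and 348 (log2 difference -1.40, SE 0.24, limma adjusted p = 0.0103), and without wild-type replicate 1 its limma adjusted p was 0.0663. MAPK13, a p38 isoform, fell from 154, 177 and 138 to 62.3, 58.0 and 38.2 (-1.57, SE 0.36, limma adjusted p = 0.0266). Its call was lost in 5 of 6 fits without 1 library, the exception being the fit without knockout replicate 1. On dropping wild-type replicates 1, 2 and 3 and knockout replicates 2 and 3 in turn, the limma adjusted p was 0.110, 0.0744, 0.0843, 0.0609 and 0.0881. Neither MAPK3, an ERK gene, nor MAPK14, a p38 gene, passed: MAPK3 differed by 0.23 (SE 0.31, limma adjusted p = 0.703) and MAPK14 by 0.26 (SE 0.33, limma adjusted p = 0.668). In the kinase list the median was -0.19.

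One tier up, 2 of 17 MAP kinase kinases, RAF kinases and related kinases fell and 0 rose. That was 11.8%, against 12.8% of all genes, with a median of -0.10. BRAF, a RAF kinase that starts the ERK cascade, fell from 473, 546 and 621 normalized counts to 282, 176 and 180 (log2 difference -1.39, SE 0.28, limma adjusted p = 0.0187). The limma adjusted p of BRAF was 0.0675, 0.0854, 0.0617 and 0.0751 without wild-type replicates 1 and 3 and knockout replicates 2 and 3. MAP2K3, an activator of p38, fell from 1329, 1127 and 1317 to 451, 655 and 841 (-0.99, SE 0.27, limma adjusted p = 0.0486). The MAP2K3 call was lost in each of the 6 fits without 1 library. The limma adjusted p was 0.177, 0.0741 and 0.150 on dropping each wild-type library in turn, and 0.0622, 0.102 and 0.0549 on dropping each knockout library. The list had 6 calls without wild-type replicate 2 and knockout replicate 1 together, where 28.9% of all genes were called.

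ERK feedback and target genes, some of them feedback inhibitors like DUSP4 and DUSP6, moved in both directions. Of 21 tested 3 rose and 2 fell (23.8%, against 12.8% of all genes). Differences were positive in 15 of 21, against 50.4% of all genes, with a median of 0.25. SPRY4, an inhibitor of receptor tyrosine kinase signalling, rose from 264, 165 and 373 normalized counts to 633, 762 and 848 (log2 difference 1.55, SE 0.33, limma adjusted p = 0.0221). ETV4, an ETS factor downstream of FGF, rose from 21.1, 19.8 and 16.6 to 50.8, 76.9 and 68.4 (1.70, SE 0.44, limma adjusted p = 0.0413), and SPSB1, a ubiquitin ligase adaptor, from 40.8, 60.9 and 55.5 to 216, 245 and 127 (1.85, SE 0.39, limma adjusted p = 0.0201). IL17RD, a membrane inhibitor of FGF signalling, fell from 219, 126 and 307 to 5.08, 14.5 and 14.2 (-4.19, SE 0.56, limma adjusted p = 0.00338). EPHA4, an ephrin receptor, fell from 1373, 1353 and 1872 to 454, 312 and 244 (-2.21, SE 0.29, limma adjusted p = 0.00295).

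The 2 falls held in each fit that left out 1 library, and the rises did not. For SPRY4 the limma adjusted p was 0.0842, 0.0668 and 0.0915 on dropping wild-type replicate 1 and knockout replicates 2 and 3 in turn. For SPSB1 it was 0.0885, 0.0664 and 0.0753 (limma) on dropping wild-type replicates 1 and 3 and knockout replicate 2. ETV4 kept its call on dropping knockout replicate 1 and lost it in the other 5 fits, where the limma adjusted p was 0.115, 0.0740 and 0.130 (wild-type replicates 1, 2 and 3 dropped) and 0.135 and 0.136 (knockout replicates 2 and 3 dropped). SPRY1, SPRY2 and ETV5 differed by 0.39, -0.43 and 0.12 (SE 0.22, 0.25 and 0.35) and did not pass (limma adjusted p = 0.300, 0.318 and 0.872). The list had from 2 to 6 calls with 1 library left out: 2 without wild-type replicate 1 or knockout replicate 2, and 3 without wild-type replicate 3 or knockout replicate 3.

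The immediate early genes are transcription factors and regulators induced within minutes of a stimulus, often together with DUSP1. They had 6 calls among 17 tested (35.3%, against 12.8% of all genes), 2 higher and 4 lower, and a median of 0.25. MYC, a growth-promoting factor, rose from 36.3, 31.2 and 65.1 normalized counts to 472, 671 and 669 (log2 difference 3.80, SE 0.37, limma adjusted p = 0.000968). ZFP36, which destabilizes AU-rich mRNAs, rose from 322, 276 and 272 to 782, 535 and 615 (1.13, SE 0.24, limma adjusted p = 0.0221). BTG2, an antiproliferative gene, fell from 2674, 1795 and 3179 to 336, 484 and 481 (-2.53, SE 0.28, limma adjusted p = 0.00156). EGR1, a zinc finger factor, fell from 116, 110.4 and 112 to 7.63, 32.3 and 9.78 (-2.97, SE 0.59, limma adjusted p = 0.0163), the stress-response factor ATF3 from 862, 870 and 1016 to 435, 421 and 439 (-1.08, SE 0.20, limma adjusted p = 0.0132), and JUN, a subunit of AP-1, from 2249, 1827 and 2136 to 977, 1074 and 1273 (-0.90, SE 0.20, limma adjusted p = 0.0237). Each of these 6 genes, picked by this same contrast, was separate between the genotypes, as were 33.4% of all genes tested.

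Leaving out 1 library kept the calls for MYC and BTG2. EGR1 and ATF3 lost theirs without wild-type replicate 1 (limma adjusted p = 0.0773 and 0.0660), wild-type replicate 3 (0.0694 and 0.0698) and knockout replicate 3 (0.0623 and 0.0547). JUN lost its call without wild-type replicates 1 and 3 and knockout replicates 2 and 3 (limma adjusted p = 0.121, 0.0965, 0.0752 and 0.0568), and ZFP36 without wild-type replicates 1, 2 and 3 and knockout replicate 3 (limma adjusted p = 0.0773, 0.0526, 0.0883 and 0.0791). The list had 2 calls on dropping replicate 1 or 3 of the wild type or replicate 3 of the knockout. FOS had a log2 difference of -0.38 (SE 0.29, limma adjusted p = 0.441).

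Among 14 substrates and effectors of p38 and JNK, 2 rose and 0 fell (14.3%, against 12.8% of all genes, median 0.023). RPS6KA5, a nuclear kinase that p38 and ERK activate, rose from 261, 291 and 226 normalized counts to 806, 1020 and 854 (log2 difference 1.78, SE 0.23, limma adjusted p = 0.00290), in each fit that left out 1 library as well. MKNK1, a kinase of the translation factor eIF4E, rose from 690.3, 578 and 808 to 1696, 1419 and 1075 (1.00, SE 0.25, limma adjusted p = 0.0365). The MKNK1 call was lost in each of the 6 fits without 1 library. The limma adjusted p was then 0.131, 0.0853 and 0.0741 for the wild-type libraries in turn and 0.0637, 0.0998 and 0.0534 for the knockout libraries, and the list had 1 call. Calls over all genes ranged from 796 to 2181 in those fits.

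**Figure D4:**
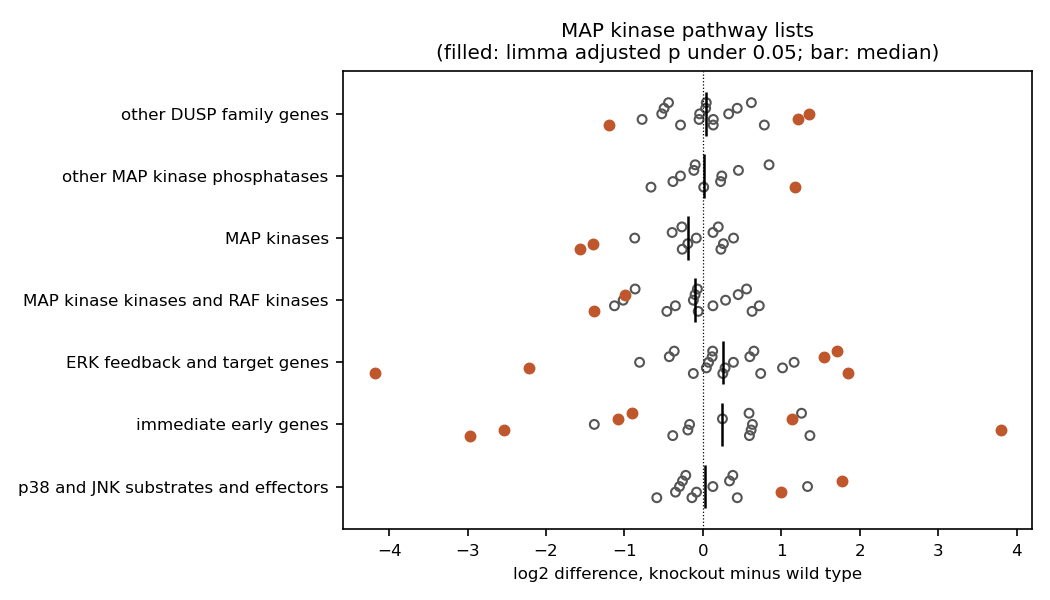
Log2 differences (knockout minus wild type) of each tested gene in 7 lists around the MAP kinase cascade, filled where the limma adjusted p was under 0.05, with the list median as a bar. The immediate early genes have 6 filled points on both sides of 0, from EGR1 at -2.97 to MYC at 3.80, and the list medians lie between -0.19 and 0.25.

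Of the genes of described DUSP26 partners, FADD, a death receptor adaptor, differed by -0.11 (SE 0.20, limma adjusted p = 0.786) and KIF3A, a kinesin motor, by 0.31 (SE 0.25, limma adjusted p = 0.473), and neither passed. HSF4 was below the level tested.

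The loss of DUSP26 was set beside the genes around it on chromosome 8, the 5 coding genes on each side in GENCODE 29, and likewise for DUSP4. Of these 20 genes 16 were tested, 7 of them around DUSP26. By limma 0 of the 16 had an adjusted p under 0.05, against 12.8% of all genes. An unadjusted limma p under 0.05 was found for 2, FUT10 and PLPBP, both among the 7 around DUSP26. There were 0 calls by edgeR and 1 by DESeq2 (FUT10, adjusted p = 0.0381). TTI2, whose start lies 86.5 kb from that of DUSP26, had 1533, 1440 and 1700 normalized counts in the wild type against 1025, 2299 and 1989 in the knockout (log2 difference 0.11, SE 0.31, limma adjusted p = 0.871). MAK16, at 115 kb, differed by 0.46 (SE 0.33, limma adjusted p = 0.423). FUT10, at 127 kb, had 498, 358 and 412 normalized counts against 123, 281 and 226 (-1.07, SE 0.36, limma adjusted p = 0.0924), and its genotypes did not overlap. Nearest to DUSP26, RNF122 at 33.0 kb had 9, 2 and 2 reads in the wild type and 8, 5 and 3 in the knockout, too few to test. These 4 genes lie on the same side of DUSP26. On the other side the nearest tested gene was ZNF703, at 4096 kb, and PLPBP lay at 4162 kb, so closer positions there were not covered. Without wild-type replicate 2 and knockout replicate 1, FUT10 (-0.85, limma adjusted p = 0.0405) and PLPBP (0.57, limma adjusted p = 0.00973) passed, as did 28.9% of all genes. Around DUSP4, 9 neighbours were tested and 0 had an unadjusted p under 0.05 by limma or a call by edgeR or DESeq2.

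**Figure D5:**
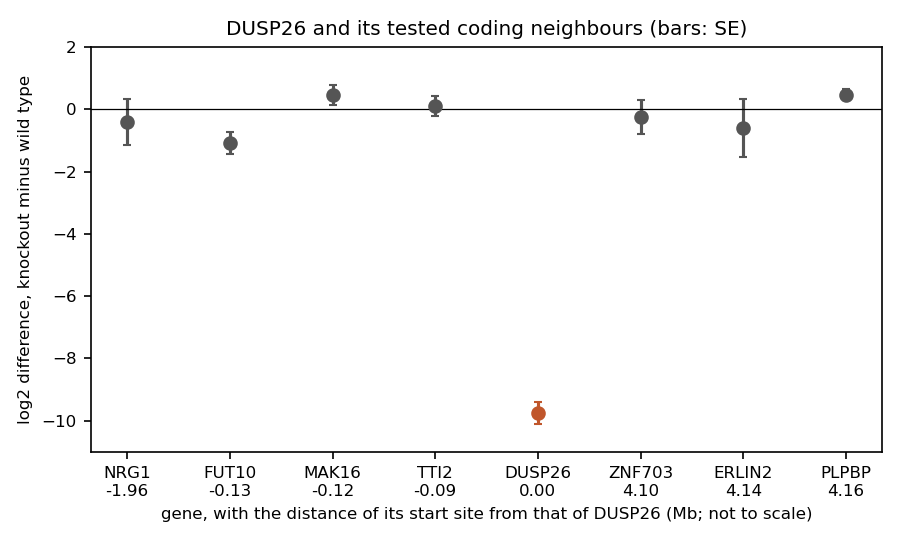
Log2 differences (knockout minus wild type, bars showing the SE) of DUSP26 and its 7 tested coding neighbours, ordered along chromosome 8 with the distance between start sites in Mb under each name. DUSP26 lies at -9.77 and its tested neighbours between -1.07 and 0.47.

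Across the 6 libraries, the genes whose log2 values tracked DUSP26 most closely were INPP5D, AC026412.1, CDKN1A, WNT2 and TNFRSF10C, out of 13007 compared. Their Pearson r with DUSP26 ran from 0.998 to 0.9996 over 6 libraries, and 83 genes had an r over 0.99. The choice of genes depended on the scale: of these 5, 2 were among the top 5 with a pseudocount of 10, 1 with libraries scaled to equal totals and 4 with equal upper quartiles. These points share the step between genotypes, so r measures mostly that step and is given without a p. CDKN1A, the gene of the cell cycle inhibitor p21, had 21874, 21721 and 24553 normalized counts in the wild type and 985, 1403 and 1302 in the knockout. INPP5D, an inositol phosphatase gene, had 187, 187 and 191 against 15.3, 21.2 and 16.9. WNT2, a secreted ligand, had 2079.9, 1685 and 2444 against 21.6, 31.2 and 25.8, and TNFRSF10C, a decoy death receptor, 1004, 778 and 903 against 28.0, 39.0 and 32.9. AC026412.1, a transcript named only by its clone, had 1095, 1357 and 1080 against 5.08, 7.80 and 3.55.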

How the data were processed

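The members and gene lists were chosen with earlier results of these data known. Per the submitters' processing notes, bcl2fastq 2.19, kallisto 0.44.0, DESeq2 1.28.1 and GRCh38 were used; their order and the annotation are not given in the sources used here. Per the labels' protocols, cDNA was made with a Clontech low-input kit and NexteraXT. The deposited signal is a normalized count for each gene and library. A single divisor for each library turned 100% of these values back into whole reads, within 0.001 reads. Reads shared between related genes are estimates. The labels mention no molecular identifiers, so counting intervals leave out amplification error.

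Differences were fitted in R 4.3.3 with limma 3.58.1 (eBayes with a trend) to log2(value + 1). The 15536 genes whose mean reached 10 entered, and differences are on that scale, which understates changes of low genes. Benjamini-Hochberg adjustment ran over all of them, with a threshold of 0.05. The whole reads were also tested with edgeR 4.0.16 and with DESeq2 1.42.0. Genes named are the 10 members, DUSP7, STK25, up to 6 genes per list past the threshold (largest differences), the neighbours and the 5 genes most like DUSP26 (mean of at least 50; chromosome Y and XIST left out). Other list genes were named after their values were seen. Lengths and positions are from GENCODE 29, and promoters from RefSeq (GRCh38.p14). Figures used Python 3.11.15 and matplotlib 3.10.9. Results for some list genes are not reported here.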

Additional observations from a re-analysis of the deposited data

How the results depend on the processing

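The alternatives were pseudocounts of 0.1 and 10, no filter or a minimum mean of 50, equal totals or upper quartiles, the replicate number as a block, edgeR, DESeq2 and leaving out each library; leaving out wild-type replicate 2 and knockout replicate 1 together was chosen after seeing the data. The signs of DUSP1, DUSP4, DUSP5, DUSP6, DUSP10, DUSP16 and DUSP26 held in each of these fits. Deviations of same-numbered libraries from their genotype means correlated at -0.235, -0.400 and 0.169 for numbers 1, 2 and 3. Libraries of unlike number correlated from -0.35 (wild-type replicate 3, knockout replicate 1) to 0.448 (wild-type replicate 2, knockout replicate 1). Whether same-numbered libraries shared a preparation was not tested. With the replicate block, calls over all genes went from 1982 to 798. Under the block the other DUSP genes, other phosphatases, MAP kinases, and MAP kinase kinases with RAF kinases each had 0 calls by limma; ERK feedback genes had 2, immediate early genes 3 and p38 and JNK effectors 1, and 2 members (DUSP4 and DUSP26) were past the threshold. A pseudocount of 0.1, no filter and edgeR each left 1 call among the MAP kinase kinases and RAF kinases, and no filter 1 among the MAP kinases. Without the filter, which added DUSP9, the members' median was 0.12. With equal totals it was -0.38, ERK feedback genes had 3 calls, and DUSP5, DUSP16 and DUSP26 were the 3 members past the threshold. DESeq2 gave 3210 calls over all genes, 5 among the MAP kinase kinases and RAF kinases and 1 among the neighbours. Without wild-type replicate 2 and knockout replicate 1, there were 4483 calls over all genes, 28.9% of those tested. The members' median was then 0.47. Other DUSP genes had 6 calls, other phosphatases 2, MAP kinase kinases and RAF kinases 6, p38 and JNK effectors 4 and neighbours 2. Leaving out 1 library gave from 796 (without wild-type replicate 1) to 2181 (without knockout replicate 1) calls over all genes, and a members' median from -0.26 to 0.33. Calls then ran from 1 to 4 for other DUSP genes, 0 to 2 for MAP kinases, 0 to 2 for MAP kinase kinases and RAF kinases, 2 to 6 for ERK feedback genes, 2 to 6 for immediate early genes and 1 to 1 for p38 and JNK effectors. The cause of these changes was not tested. Depth limits DUSP9, DUSP4 in the wild type and DUSP26 in the knockout, which rest on at most 28 reads a library.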
